A study of Homo sapiens with 24 samples.

Results

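Ribosome biogenesis and nucleolar factors are the proteins that make ribosomal RNA, trim and modify it, and assemble it with ribosomal proteins into subunits. The 50 genes described here are a named list, taken by platform gene symbol with the brightest probe set of each gene (the highest mean signal over all arrays). Of these, 47 were measured among 18239 genes in all, and DDX18, GNL3 and EBNA1BP2 are not analysed here. By main role, 17 of the measured genes act on the small subunit, 12 on the large subunit and 7 in small nucleolar ribonucleoproteins (snoRNPs). Another 4 encode abundant nucleolar proteins, 2 encode subunits of RNase MRP and RNase P, and 5 belong to the RNA polymerase I (Pol I) machinery.

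Expression was measured on 24 Affymetrix arrays of HCT116, an established human colon cancer cell line, with 3 arrays in each of 8 groups. ESR2 cells in hypoxia with 10 nM 17β-estradiol, in normoxia with estradiol, in hypoxia without it and in normoxia without it form 4 groups, and parental cells under the same conditions form the other 4. ESR2 cells are a puromycin-selected, GFP-carrying pool that received full-length ESR2, the gene of estrogen receptor beta, with an N-terminal HaloTag from a lentivirus, and not every cell carried GFP. No group carries an empty vector, so the receptor and the transduction cannot be told apart. The estradiol groups had medium free of phenol red and serum stripped with charcoal. Neither the medium of the untreated groups nor the length of hypoxia is stated, so estradiol and its medium cannot be told apart. Low oxygen came from a flow of nitrogen and carbon dioxide.

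In the nucleolus, Pol I copies ribosomal DNA into a long precursor, with UBTF holding the repeats open and RRN3 bringing the polymerase to the promoter. Box C/D snoRNPs methylate the precursor and H/ACA snoRNPs convert uridine to pseudouridine, while the small subunit processome and the large subunit assembly factors fold and cut it. The process takes much of a growing cell's energy and nucleotides and is often raised in cancer cells, where MYC is a known activator of many of its genes.

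Values are log2 signals, so a difference of 1 is a 2-fold change. ESR2 itself read 4.89, 4.03 and 4.63 in ESR2 cells in normoxia without estradiol, against 3.35, 3.54 and 3.52 in parental cells, and was higher by 1.05 (SE 0.13, n = 3 each; limma, adjusted p = 6.44e-06). In ESR2 cells it was lower in hypoxia than in normoxia, by 0.48 with estradiol (adjusted p = 0.00401) and by 0.44 without it (adjusted p = 0.0124), and in hypoxia it stayed above parental cells, by 0.46 with estradiol and 0.64 without. These ESR2 values are from the brightest of its 8 probe sets. Array medians lay between 4.07 and 4.13, so the ESR2 signal was dim even in ESR2 cells. Of the epithelial markers, EPCAM, KRT8, KRT18 and KRT19 averaged 9.38 to 11.4 over all arrays and CDH1 averaged 7.27, while CDH17 averaged 3.60, among the dim probe sets. The 14 measured markers of fibroblasts, leukocytes and embryonic kidney lines averaged at most 4.10. In 4 arrays the 3′ minus 5′ index, the mean log2 difference between 3′ and 5′ probe sets of 3 control transcripts (beta-actin, dap, thr), stood apart: it was 3.42, 4.01 and 3.80 in hypoxic ESR2 cells with estradiol and 4.34 on array 2 of parental normoxia without estradiol, against 2.00 to 3.10 on the other 20 arrays. On that array 2 the 5′ probe sets of 18S and 28S rRNA read 7.51 and 9.82, against 12.5 to 12.7 and 10.8 to 12.1 on those 20 arrays. Among those 20, the 3 arrays of hypoxic ESR2 cells without estradiol had the lowest index, at 2.12, 2.00 and 2.19. They also had the lowest 28S readings, at 11.1, 11.3 and 10.8, and the lowest 18S readings. Comparisons of hypoxic ESR2 cells without estradiol rest on them. For most comparisons that rest on the 4 arrays with a high index, the median is given below with and without a term for the index. Counts and values of single genes are from the fit without that term unless stated. Whether the 3 replicates of a group were separate cultures is not stated. The p-values therefore cover the spread among these arrays, possibly a technical one, and 3 arrays a group limit the precision.

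**Figure D1:**
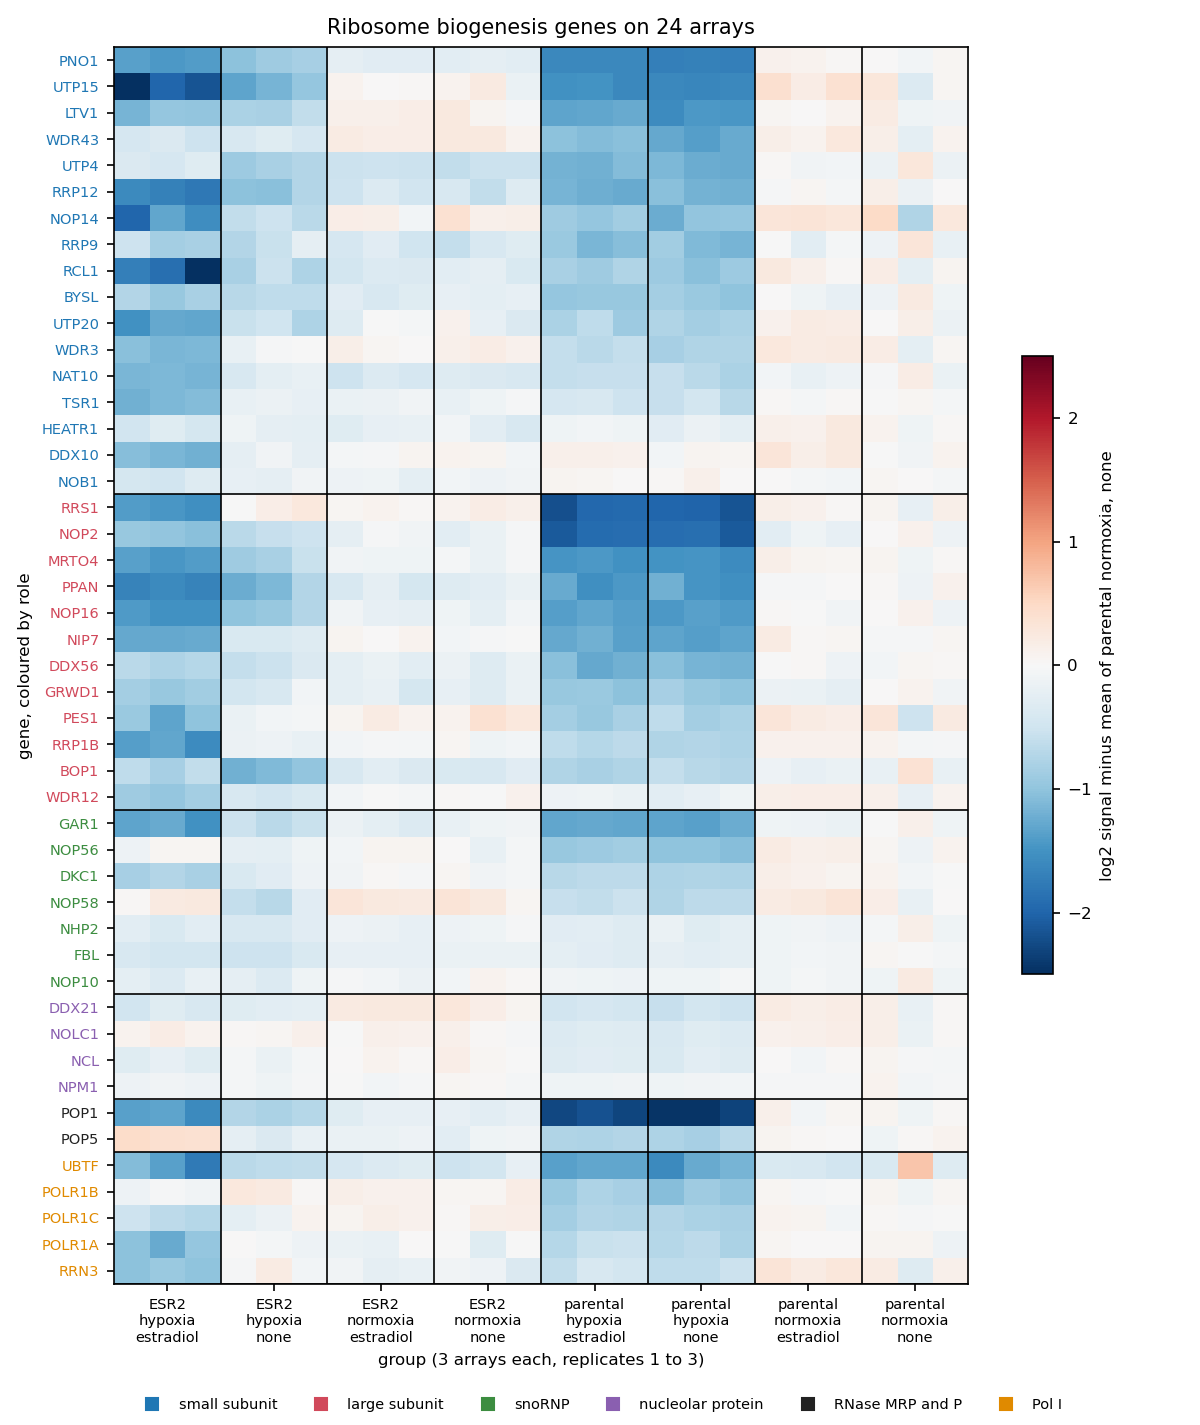
Heat map of the 47 measured genes (rows, grouped and coloured by role) on the 24 arrays (columns, 3 per group), as log2 signal minus the mean of parental normoxia without estradiol. Both parental hypoxia groups are blue in nearly all rows; hypoxic ESR2 cells without estradiol are paler, and with estradiol many rows are blue again.

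Hypoxia in parental cells without estradiol was compared with normoxia to ask how the cells respond to low oxygen. The ribosome biogenesis genes fell almost throughout: 43 of 47 fell, 0 rose and 4 did not pass the test, where 21.2% of all genes fell and 16.4% rose (limma, Benjamini-Hochberg adjusted p under 0.05). Their median change was -0.80, against 0.00 for all genes, and 19 of them fell by more than 2-fold. With the index as a term their median was -0.87. The groups did not overlap in 42 of the 43, a separation that passing the test already favours. The share among all genes that fell was not counted. Of the 112 probe sets of these genes, 106 were lower and 87 passed the test as lower, while 1 passed as higher, a probe set of POLR1C at 0.38. Shares of all probe sets in these directions, and of all genes past 2-fold here or in later comparisons, were not counted. In whole-culture RNA, fewer expressing cells and less RNA per cell cannot be told apart.

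These genes fell together, so the DNA just before their transcription starts was read for letters that MYC and hypoxia-inducible factors are known to bind. The 250 bases before the start were found for 40 of the 47 genes in RefSeq (GRCh38.p14). The E-box CACGTG, which reads the same on both strands, occurs in 4 of the 40 (10.0%) and in 7.84% of 15843 protein-coding promoters. The hypoxia response core ACGTG, searched on both strands and overlapping the E-box, occurs in 10 of the 40 and in 20.8% of all, and its other form GCGTG in 20 of the 40 and 39.2% of all. In each of these 4 genes an E-box starts within 60 bases of the transcription start, a stretch in which 454 protein-coding promoters (2.87%) have one. The length of that stretch was chosen after the positions of these E-boxes had been seen. The last 60 bases before the start of these 4 genes are shown 5′ to 3′ on the gene's strand, with the E-box in capitals, to show where it lies: UTP4 (chr16:69132589-69132648, plus strand), UTP20 (chr12:101280045-101280104, plus), NAT10 (chr11:34105569-34105628, plus) and NOP10 (chr15:34343137-34343196, minus).
UTP4: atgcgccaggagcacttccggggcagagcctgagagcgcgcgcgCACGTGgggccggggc
UTP20: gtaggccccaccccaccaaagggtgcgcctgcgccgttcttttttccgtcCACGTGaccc
NAT10: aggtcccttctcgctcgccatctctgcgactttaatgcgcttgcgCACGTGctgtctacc
NOP10: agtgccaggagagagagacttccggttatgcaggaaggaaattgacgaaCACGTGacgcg

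The same stretch of PNO1 (chr2:68157828-68157887, plus strand), NOP2 (chr12:6568292-6568351, minus) and UBTF (chr17:44220883-44220942, minus), which led or nearly led the falls of their roles, holds no E-box. In each of them it does hold the form GCGTG, which is left in lower case. How many other genes of the list, or of all protein-coding genes, hold GCGTG in that stretch was not counted. No conclusion is therefore drawn from it. Promoters of POP1 and RRS1, which fell more, were not among those found.
PNO1: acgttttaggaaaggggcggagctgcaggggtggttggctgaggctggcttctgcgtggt
NOP2: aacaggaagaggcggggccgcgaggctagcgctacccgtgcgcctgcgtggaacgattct
UBTF: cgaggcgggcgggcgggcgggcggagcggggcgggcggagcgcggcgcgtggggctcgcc
The 4 genes with an E-box had a median hypoxia change of -0.74 in parental cells, and the 36 without one -0.93. Changes of the first set ran from -1.21 to -0.09 and those of the second from -1.96 to 0.05, so the sets overlapped.

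Among small subunit factors 15 of 17 fell in hypoxic parental cells, with a class median of -0.95. PNO1, which works with the nuclease NOB1 in the last maturation steps, read 7.80, 7.82 and 7.80 in hypoxia and 9.51, 9.44 and 9.56 in normoxia. The groups were far apart, a fall of 1.70 (3.24-fold, SE 0.06, n = 3 each; limma, adjusted p = 1.18e-16). UTP15, a processome subunit also tied to Pol I transcription, read 5.67, 5.66 and 5.67 in hypoxia, against 7.58, 6.96 and 7.34 in normoxia. Every hypoxic array was below every normoxic one, although array 2 of normoxia was the lowest of its group, and the change was -1.62 (SE 0.15; limma, adjusted p = 3.69e-09). LTV1, a factor of late assembly and export, read 6.93, 7.07 and 7.05 in hypoxia and 8.70, 8.39 and 8.41 in normoxia, a change of -1.48 (SE 0.08). It fell on 4 of its 5 probe sets, and the other had -0.07.

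RRP9, a protein particular to the U3 snoRNP, read 5.80, 5.58 and 5.53 in hypoxia and 6.56, 6.99 and 6.50 in normoxia, a change of -1.05 (SE 0.13) with no overlap. The processome subunits WDR43 (-1.30), UTP4 (-1.21), RRP12 (-1.15) and NOP14 (-1.07) also fell by more than 2-fold. Smaller falls were those of RCL1 (-0.95), BYSL (-0.93), UTP20 (-0.80), WDR3 (-0.78), NAT10, an rRNA acetyltransferase (-0.68), TSR1 (-0.58) and HEATR1 (-0.22). The remaining small subunit genes did not pass. The helicase DDX10 read 7.17, 7.30 and 7.29 in hypoxia and 7.24, 7.16 and 7.34 in normoxia, with overlapping groups and a difference of 0.01 (SE 0.07; limma, adjusted p = 0.942). NOB1, which makes the final cut of small subunit rRNA, differed by 0.05 (SE 0.06; adjusted p = 0.552). Its partner PNO1 had the largest fall of this class in the same arrays.

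All 12 measured large subunit factors fell, with a median of -1.23. RRS1, which in yeast helps to load the 5S ribonucleoprotein, read 6.72, 6.70 and 6.55 in hypoxia and 8.77, 8.50 and 8.86 in normoxia. No array of one group came within 1 log2 unit of the other, and RRS1 fell 4.15-fold (log2 -2.05, SE 0.09, n = 3 each; limma, adjusted p = 7.07e-15). NOP2, a methyltransferase of large subunit rRNA, read 6.00, 6.02 and 5.80 in hypoxia, against 7.91, 8.01 and 7.78 in normoxia. It fell 3.90-fold (log2 -1.96, SE 0.08) and was lower on all 3 of its probe sets. MRTO4, a placeholder for a stalk protein on the immature subunit, read 8.08, 8.10 and 7.99 in hypoxia and 9.63, 9.47 and 9.60 in normoxia, a fall of 1.51 (SE 0.07).

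Other large subunit genes past 2-fold were PPAN (-1.40), NOP16 (-1.40), NIP7 (-1.33) and the helicase DDX56 (-1.13), while GRWD1 fell by 0.93 and RRP1B by 0.75. Within the PeBoW complex, which is needed for processing of large subunit rRNA, PES1 fell by 0.76, BOP1 by 0.67 and WDR12 by only 0.19 (SE 0.07; limma, adjusted p = 0.0400). WDR12 read 9.67, 9.74 and 9.82 in hypoxia and 10.06, 9.72 and 10.02 in normoxia. Array 2 of normoxia lay inside the hypoxic range, so WDR12 was the one called gene whose groups overlapped.

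Of the snoRNP proteins 6 of 7 fell. GAR1, of the H/ACA particle, read 9.04, 9.01 and 9.13 in hypoxia and 10.36, 10.50 and 10.26 in normoxia, a fall of 1.31 (SE 0.07; limma, adjusted p = 6.02e-13). DKC1, the pseudouridine synthase of the same particle, read 9.87, 9.89 and 9.88 in hypoxia and 10.73, 10.58 and 10.64 in normoxia, a fall of 0.77 (SE 0.06). Their partner NHP2 fell by 0.24. NOP10, the smallest protein of the particle, read 10.37, 10.38 and 10.43 in hypoxia and 10.38, 10.71 and 10.37 in normoxia, overlapping groups that did not pass (-0.09, SE 0.08; limma, adjusted p = 0.416). Members of a single particle thus had changes between -1.31 and -0.09. NOP56, of the box C/D particle, read 10.45, 10.46 and 10.39 in hypoxia and 11.51, 11.32 and 11.54 in normoxia, a fall of 1.03 (SE 0.07). NOP58, which pairs with NOP56, fell by 0.68 and the methyltransferase FBL by 0.24.

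The abundant nucleolar proteins changed least, and brighter genes of the whole set had smaller falls: the 11 genes with a mean signal of 10 or more had a median of -0.32 and the 36 below it -1.01. Spearman's rho of change and mean signal was 0.48 over the 47 genes, which share their arrays, and -0.10 over all genes. NPM1, a chaperone and storage protein of the nucleolus, read 12.62, 12.63 and 12.66 in hypoxia and 12.82, 12.66 and 12.70 in normoxia, a difference of -0.09 (SE 0.05; limma, adjusted p = 0.216), and 0 of its 6 probe sets passed. DDX21, a helicase of rRNA transcription and processing, read 10.63, 10.74 and 10.69 in hypoxia and 11.35, 11.01 and 11.24 in normoxia, a fall of 0.51 (SE 0.07). NOLC1, which escorts snoRNPs, read 11.32, 11.40 and 11.36 in hypoxia, against 11.86, 11.53 and 11.73 in normoxia, a fall of 0.35 (SE 0.07). Array 2 of normoxia was the lowest of its group for both genes, and neither overlapped. Nucleolin (NCL), an RNA-binding protein of the nucleolus, read 11.54, 11.65 and 11.59 in hypoxia and 11.99, 11.88 and 11.87 in normoxia, a fall of 0.32 (SE 0.06).

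Both RNase MRP and P subunits fell, and POP1, their large scaffold protein, had the greatest fall of all 47 genes. It read 6.43, 6.42 and 6.56 in hypoxia, against 8.96, 8.77 and 8.92 in normoxia. The groups were more than 2 log2 units apart, a fall of 5.32-fold (log2 -2.41, SE 0.07, n = 3 each; limma, adjusted p = 4.08e-17). POP5, a small subunit of the same enzymes, read 8.58, 8.53 and 8.67 in hypoxia and 9.24, 9.39 and 9.44 in normoxia, a fall of 0.76 (SE 0.07).

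All 5 Pol I genes fell, with a median of -0.78. UBTF read 5.40, 5.74 and 5.83 in hypoxia, against 6.62, 7.70 and 6.67 in normoxia. The groups did not overlap, but array 2 of normoxia, one of those with a high index, lay 1 log2 unit above the other normoxic arrays. UBTF fell by 1.34 (SE 0.19; limma, adjusted p = 3.10e-06), and by 0.99 without that array. POLR1B, the second-largest polymerase subunit, read 7.45, 7.64 and 7.54 in hypoxia and 8.58, 8.41 and 8.57 in normoxia, a fall of 0.98 (SE 0.07), with all 6 of its probe sets lower. Neither gene's groups overlapped. POLR1C, which Pol I shares with Pol III, read 7.85, 7.79 and 7.76 in hypoxia and 8.62, 8.55 and 8.58 in normoxia, a fall of 0.78 (SE 0.08), although 1 of its 3 probe sets rose. RRN3 read 7.56, 7.58 and 7.68 in hypoxia, against 8.41, 7.88 and 8.33 in normoxia, a fall of 0.60 (SE 0.11), the smallest of the class, with the groups closest at array 2 of normoxia. POLR1A, the catalytic subunit, fell by 0.73 (SE 0.09).

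**Figure D2:**
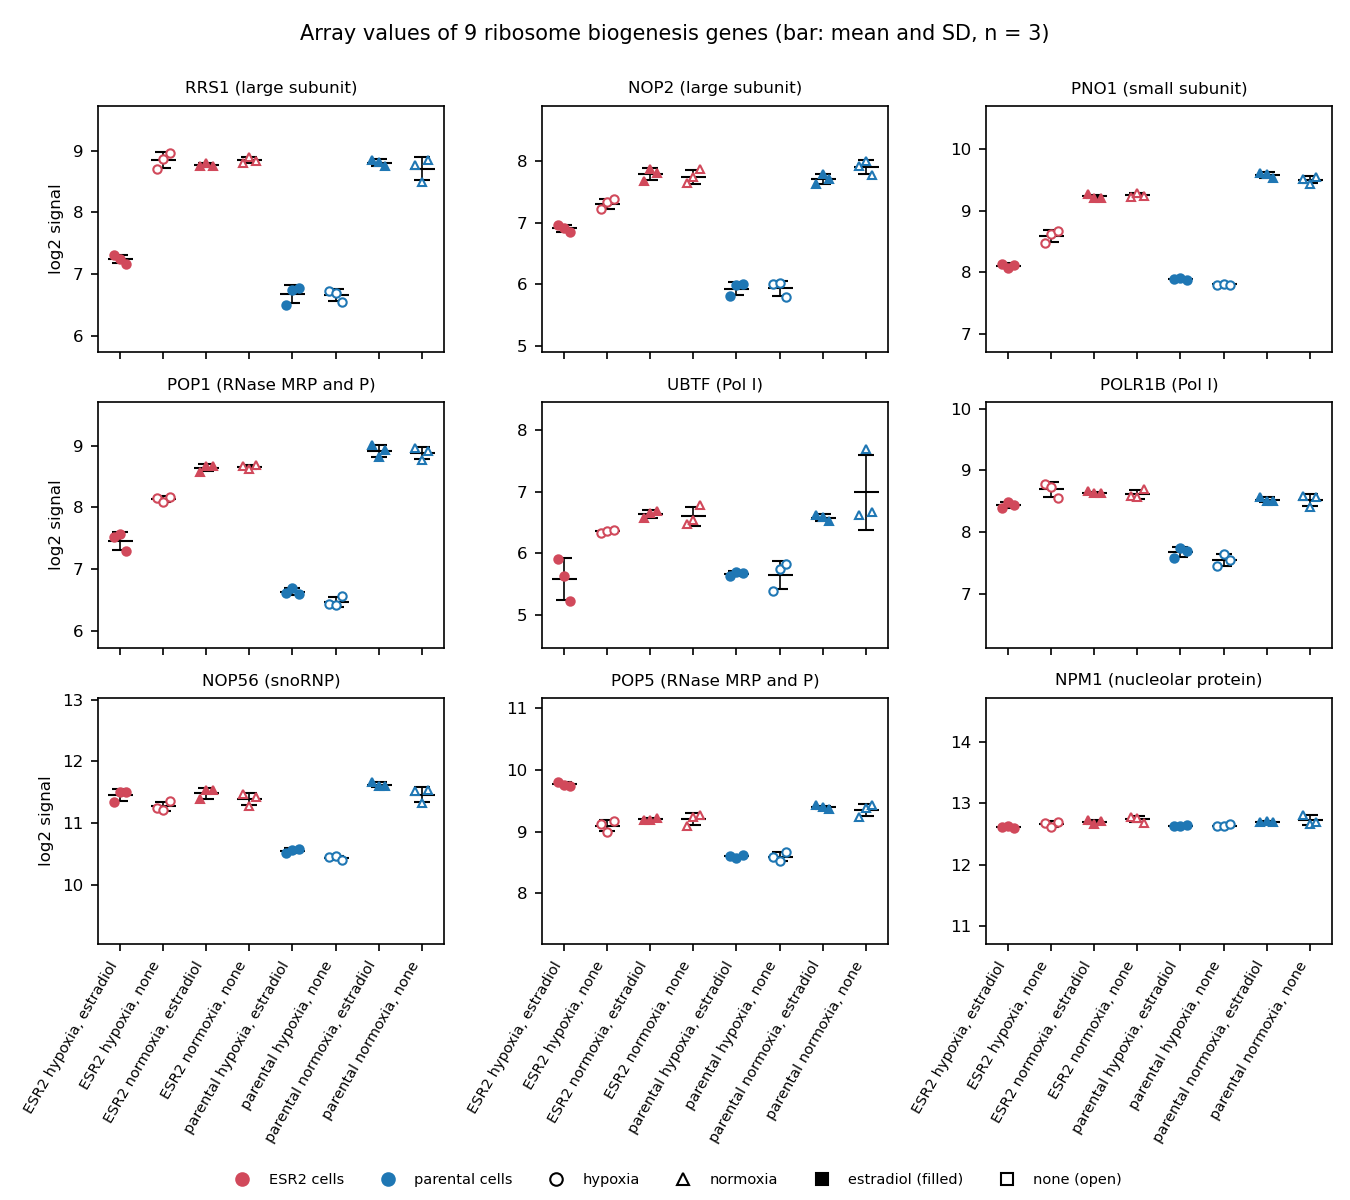
Log2 signal of 9 genes on every array (points), with the mean and SD of each group of 3 (bars), for ESR2 and parental cells in hypoxia and normoxia with and without estradiol; each panel has its own axis. RRS1 in hypoxic ESR2 cells without estradiol (8.71 to 8.97) sits with the normoxic groups, while with estradiol it reads 7.17 to 7.31; NPM1 stays between 12.60 and 12.82 on all arrays.

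With estradiol, hypoxia in parental cells gave 43 falls, 0 rises and 4 genes that did not pass, where 18.7% of all genes fell and 16.1% rose, and a median of -0.86. POP1 (-2.29), RRS1 (-2.13), UTP15 (-1.86), NOP2 (-1.78) and PNO1 (-1.69) had the greatest falls. The uncalled genes were DDX10, NPM1, NOP10 and NOB1, at -0.12, -0.07, -0.03 and 0.07. When the hypoxia change with estradiol was set against that without it in parental cells, 0 of 47 genes passed in either direction and 0 had an unadjusted p under 0.05 (limma). Of all genes, 0.00548% were lower, 0% higher and 5.05% had such an unadjusted p in that comparison. The differences of these 47 genes ran from -0.34 to 0.43, the last being UBTF. That value leans on array 2 of normoxia without estradiol, where UBTF read 7.70, against 6.62 and 6.67 on the other arrays of that group.

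In ESR2 cells without estradiol the same genes changed less in hypoxia. There 29 of 47 fell, 0 rose and 18 did not pass, where 18.2% of all genes fell and 14.4% rose. The median was -0.27, against -0.06 for all genes, and UTP15 alone passed 2-fold (-1.20, SE 0.15; limma, adjusted p = 1.09e-06). Calls are those of the brightest probe set: of the 18 uncalled genes, 9 had another probe set that passed, lower for 7 and higher for 3, with GRWD1 in both counts. By role, 12 of 17 small subunit, 8 of 12 large subunit and 6 of 7 snoRNP genes fell, as did 1 of 4 nucleolar proteins, 1 of 2 RNase subunits and 1 of 5 Pol I genes. The mean of the 47 genes, relative to parental normoxia without estradiol, was -0.47 to -0.35 on the hypoxic ESR2 arrays, against -0.92 to -0.90 on the hypoxic parental arrays.

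The difference between the hypoxia changes, ESR2 minus parental, was tested directly. Of 47 genes 30 had a higher value, that is a smaller fall or none in ESR2 cells, 0 had a lower one and 17 did not pass, where 16.4% of all genes were higher and 14.3% lower. The median difference was 0.62, against -0.04 for all genes, and 0.63 with the index as a term. RRS1 had the largest, at 2.05 (SE 0.12; limma, adjusted p = 3.31e-11): it read 8.71, 8.87 and 8.97 in hypoxic ESR2 cells and 8.80, 8.90 and 8.84 in normoxic ones. These arrays overlapped, a change of 0.00 (SE 0.09), in contrast to the 2.05 by which RRS1 fell in parental cells. RRS1 was measured by 1 probe set, so no other probe set could be compared.

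POP1 read 8.15, 8.09 and 8.17 in hypoxic ESR2 cells and 8.67, 8.62 and 8.69 in normoxic ones, so the groups were still apart. Its fall there was 0.53 (SE 0.07), and the difference from parental cells was 1.89 (SE 0.11; limma, adjusted p = 1.49e-11). NOP2 read 7.22, 7.33 and 7.38 in hypoxic ESR2 cells, against 7.64, 7.74 and 7.86 in normoxic ones, a fall of 0.44 and a difference of 1.53 (SE 0.12; adjusted p = 9.95e-10). PNO1 fell by 0.66 in ESR2 cells, with a difference of 1.04 (SE 0.08). RRP9 did not pass in ESR2 cells (-0.07) and differed by 0.97 (SE 0.19).

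All 5 listed Pol I genes were higher, by 0.56 to 1.10. This did not extend to the 10 other Pol I genes of the wider list described below. Of those, 2 were higher, 2 lower and 6 did not pass, with a median of -0.005, where 16.4% of all genes were higher and 14.3% lower. POLR1B read 8.78, 8.74 and 8.55 in hypoxic ESR2 cells and 8.58, 8.56 and 8.70 in normoxic ones, overlapping groups with a change of 0.08 (SE 0.07; limma, adjusted p = 0.428) and a difference of 1.06 (SE 0.10; limma, adjusted p = 2.98e-08). Of its 6 probe sets, 4 were lower in hypoxic ESR2 cells and 2 passed as lower, down to -0.75. UBTF read 6.33, 6.36 and 6.37 in hypoxic ESR2 cells, against 6.48, 6.53 and 6.78 in normoxic ones, a change of -0.24 that did not pass (SE 0.19; limma, adjusted p = 0.352). Its difference from parental cells was 1.10 (SE 0.27; limma, adjusted p = 0.00298), and 0.75 without array 2 of parental normoxia. RRN3 and POLR1A did not pass in ESR2 cells, at 0.23 and 0.05, although 2 of the 3 probe sets of RRN3 rose, and POLR1C fell by 0.22.

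In the snoRNP class 3 of 7 differences passed. NOP56 read 11.24, 11.22 and 11.36 in hypoxic ESR2 cells and 11.47, 11.27 and 11.42 in normoxic ones, a change of -0.12 (SE 0.07) that did not pass and a difference of 0.91 (SE 0.10; limma, adjusted p = 2.74e-07). These values are from its brightest probe set; all 4 of its probe sets were lower in hypoxic ESR2 cells and 3 passed, down to -0.50. GAR1 differed by 0.85 and DKC1 by 0.54. For NOP58, by contrast, the fall was 0.72 in ESR2 and 0.68 in parental cells, a difference of -0.04 (SE 0.13; limma, adjusted p = 0.846). BOP1 (-0.07), FBL (-0.07) and NHP2 (-0.02) also had differences near 0 that did not pass. Of the nucleolar proteins NOLC1 alone passed, at 0.37.

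**Figure D3:**
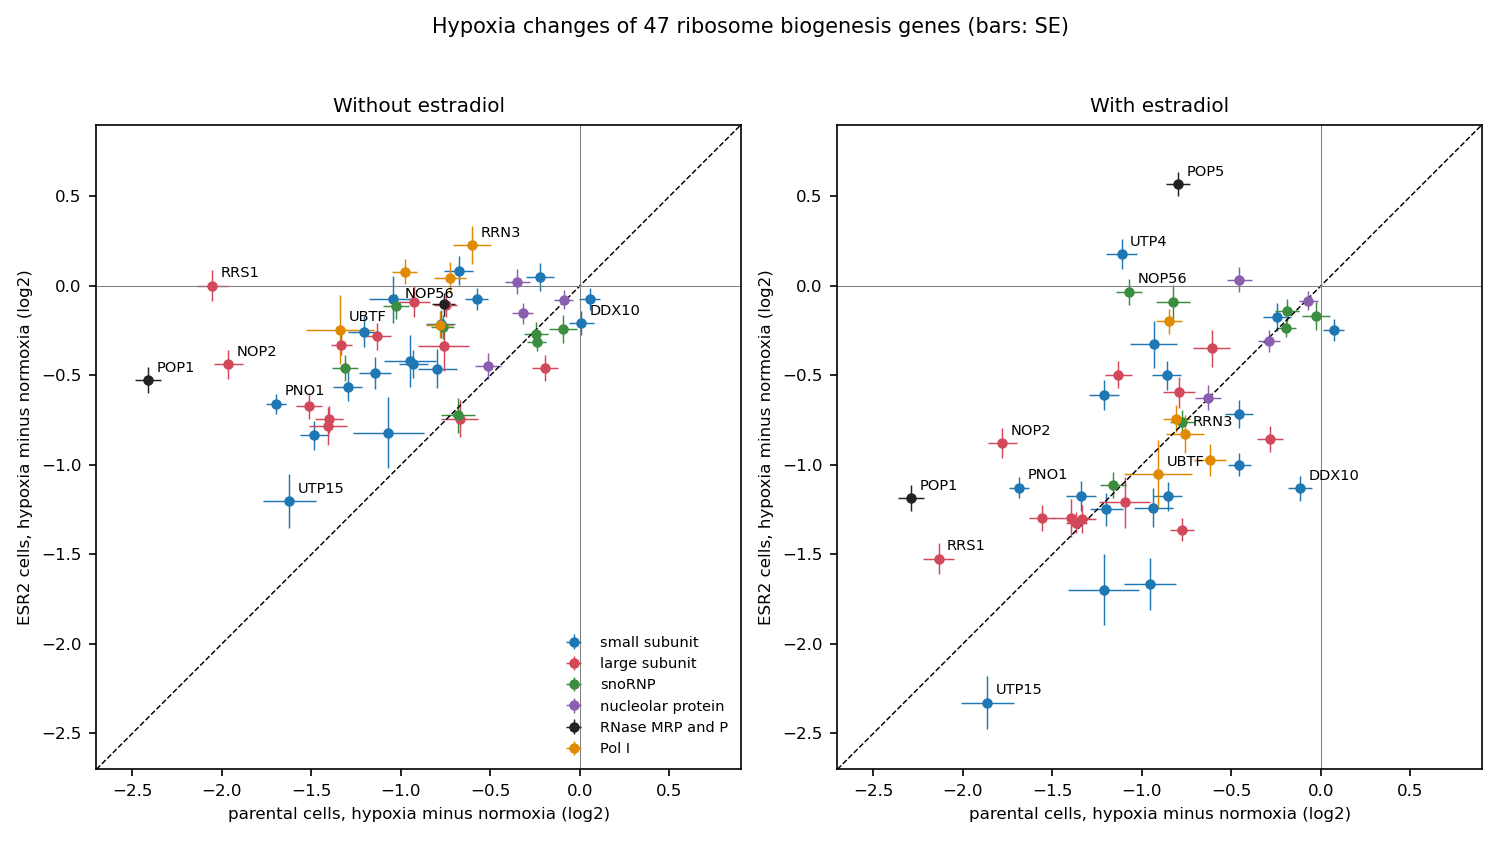
Hypoxia minus normoxia change (log2) in ESR2 cells (vertical axis) against parental cells (horizontal axis) for the 47 genes, without estradiol (left) and with estradiol (right); points are coloured by role, bars are SE, and the dashed line marks equal change. Without estradiol most points lie above the line; with estradiol they lie on both sides of it, with POP5 (0.57) above and DDX10 (-1.13) well below.

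Hypoxia in ESR2 cells with estradiol gave 38 falls, 1 rise and 8 genes that did not pass, where 22.6% of all genes fell and 29.6% rose. The median was -0.83, against 0.08 for all genes, and 19 fell by more than 2-fold. All 12 large subunit and all 5 Pol I genes fell, along with 15 of 17 small subunit, 3 of 7 snoRNP, 2 of 4 nucleolar protein and 1 of 2 RNase genes. The hypoxic arrays of this comparison have the high 3′ minus 5′ index, and with the index as a term in the fit the median was -0.76. With that term and without array 2 of parental normoxia it was -0.91. In these 3 arrays the 5′ probe set of 18S rRNA averaged 11.1, against 12.5 in hypoxic ESR2 cells without estradiol, and that of 28S rRNA 12.3 against 11.1.

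By brightest probe set UTP15 had the greatest fall, reading 4.58, 5.32 and 5.13 in hypoxia and 7.38, 7.31 and 7.32 in normoxia, 5.02-fold lower (log2 -2.33, SE 0.15; limma, adjusted p = 5.82e-12). This is its brightest probe set; the smallest fall among its 3 probe sets, all of which passed, was 0.64, and a dimmer probe set of LTV1 had -2.45. RRS1 read 7.31, 7.25 and 7.17 in hypoxia, against 8.76, 8.80 and 8.75 in normoxia, a fall of 1.52 (SE 0.09). DDX10, which did not pass in parental cells, read 6.18, 6.09 and 6.05 in hypoxia and 7.20, 7.21 and 7.31 in normoxia, a fall of 1.13 (SE 0.07; limma, adjusted p = 2.07e-12). All 3 genes had groups that were far apart. RRN3 fell by 0.83 and UBTF by 1.05.

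The single rise was that of POP5, at 9.81, 9.76 and 9.74 in hypoxia and 9.19, 9.18 and 9.23 in normoxia (0.57, SE 0.07; limma, adjusted p = 1.05e-07). It was measured by 1 probe set, and it rose under every alternative tried, by 0.53 to 0.66. Its partner POP1 fell by 1.19 in the same arrays. NOP56 (-0.03), NOP58 (-0.09), UTP4 (0.18) and NOLC1 (0.03) did not pass on their brightest probe sets. Another probe set of NOP58 fell, by 0.63, and 2 of the 3 of NOLC1 fell, down to -0.81.

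Set against hypoxia in ESR2 cells without estradiol, the change with estradiol was lower for 29 genes, higher for 4 and not past the test for 14, where 18.4% of all genes were lower and 25.4% higher. The median difference was -0.51, against 0.12 for all genes, and -0.43 with the index as a term. RRS1 differed most (-1.53, SE 0.12; limma, adjusted p = 2.05e-09), followed by RRP1B (-1.26), RCL1 (-1.25), UTP15 (-1.13) and RRN3 (-1.06). All 5 listed Pol I genes were lower, from -1.06 to -0.28, and UBTF (-0.81, adjusted p = 0.0192) lost its call when array 3 of hypoxic ESR2 cells with estradiol was left out (-0.63). Of the 10 other Pol I genes of the wider list, 4 were lower, 3 higher and 3 did not pass, with a median of -0.02. The 4 higher genes were POP5 (0.67), NOP58 (0.63), UTP4 (0.43) and BOP1 (0.39). Of the 30 genes whose hypoxia change was higher in ESR2 than in parental cells without estradiol, 22 had a lower change with estradiol than without it in ESR2 cells, 2 a higher one and 6 no call. The 2 comparisons share the ESR2 arrays without estradiol, with opposite signs. Picking genes by the first therefore favours lower values in the second. The share among all genes picked in the same way was not counted, so no conclusion is drawn from the 22.

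With estradiol in both cell types, the ESR2 minus parental difference of the hypoxia change was lower for 8 genes, higher for 15 and not past the test for 24, where 18.1% of all genes were lower and 20.6% higher, so the share of lower genes was near that of all genes. The median was 0.04, and 0.08 with the index as a term. POP5 (1.37, SE 0.09), UTP4 (1.29, SE 0.12), POP1 (1.10, SE 0.11) and NOP56 (1.04, SE 0.10) had the largest positive differences, and DDX10 (-1.02, SE 0.10; limma, adjusted p = 1.00e-08) and RCL1 (-0.71) the largest negative ones.

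In normoxia without estradiol, ESR2 cells differed little from parental cells in these genes. There 9 were lower, 0 higher and 38 did not pass, where 8.86% of all genes were lower and 9.76% higher, and the median was -0.10. With the index as a term that median was -0.08. UTP4 (-0.56, SE 0.08; limma, adjusted p = 4.99e-05), RRP12 (-0.45), RRP9 (-0.43), NAT10 (-0.36) and BOP1 (-0.36) had the greatest differences, and PNO1, HEATR1, POP1 and FBL were lower by 0.16 to 0.25. Array 2 of the parental group, with the high index, was the highest of its group for UTP4, RRP9, NAT10 and BOP1 and the lowest for RRP12. BOP1 read 8.77, 9.33 and 8.79 there, and UTP4 9.51, 9.92 and 9.51. The count of lower genes was 5 without array 1 and 4 without array 2 of the ESR2 group, and 4 genes were higher without array 1 of the parental group. Of the 9 calls, 1 was kept under every alternative and left-out array. With estradiol 11 were lower and 0 higher, where 5.22% of all genes were lower and 8.45% higher, led by RCL1 (-0.53) and UTP4 (-0.49). Without array 1 of either group 5 were lower.

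In hypoxia without estradiol, in ESR2 cells 33 genes were higher than in parental cells, 5 were lower and 9 did not pass, where 20.4% of all genes were higher and 20.0% lower. RRS1 was 4.57-fold higher (log2 2.19, SE 0.09; limma, adjusted p = 7.94e-15), POP1 3.17-fold, NOP2 2.59-fold and POLR1B 2.22-fold. The lower genes were BOP1 (-0.43), WDR12 (-0.23), FBL (-0.23), NOB1 (-0.22) and DDX10 (-0.19), and 3 of them remained without array 3 of hypoxic parental cells.

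In hypoxia with estradiol 13 genes were higher in ESR2 than in parental cells, 16 lower and 18 did not pass, where 27.8% of all genes were higher and 19.8% lower, so the share of higher genes was that of all genes. The median was -0.02, and -0.10 with the index as a term. Small subunit genes made up 11 of the 16 lower ones, led by DDX10 (-1.25) and RCL1 (-1.24), and POP5 (1.17), NOP2 (0.98) and NOP56 (0.90) led the higher ones.

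Estradiol against none was compared within each cell type and oxygen level to ask whether these genes differ with estradiol and its medium. In ESR2 cells in normoxia 0 of 47 genes passed and 0 had an unadjusted p under 0.05, where 0% of all genes passed in either direction and 5.38% had such an unadjusted p (limma). In parental cells in hypoxia 0 passed and 3 had an unadjusted p under 0.05, where 0.0110% of all genes fell, 0.00548% rose and 4.64% had such an unadjusted p. In parental cells in normoxia 0 passed and 10 had an unadjusted p under 0.05, where 0.0110% of all genes fell, 0% rose and 13.8% had such an unadjusted p, and 1 gene was called higher when array 1 without estradiol was left out. The changes in these 3 settings lay between -0.41, for UBTF in parental normoxia, and 0.32, for UTP15 there. Both lean on array 2 of parental normoxia without estradiol, which has the high index. In that group UBTF read 6.62, 7.70 and 6.67, and UTP15 7.58, 6.96 and 7.34.

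In hypoxic ESR2 cells, in contrast, 33 genes fell with estradiol, 5 rose and 9 did not pass, where 21.6% of all genes fell and 35.4% rose. The median was -0.53, against 0.12 for all genes. The arrays with estradiol are those with the high index: the median was -0.45 with the index as a term, and -0.57 with that term and without array 2 of parental normoxia. RRS1 read 7.31, 7.25 and 7.17 with estradiol and 8.71, 8.87 and 8.97 without it, a fall of 1.60 (SE 0.09; limma, adjusted p = 7.49e-13). RRN3 read 7.17, 7.27 and 7.21 with estradiol, against 8.17, 8.42 and 8.13 without it, a fall of 1.02 (SE 0.11; adjusted p = 2.97e-08). No array of either gene overlapped the other group.

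RCL1 fell by 1.34, RRP1B by 1.27, UTP15 by 1.13, POLR1A by 1.02 and DDX10 by 0.96. RRP1B fell on its brightest probe set, and its other probe set had 0.11. PNO1, at -0.49 on its brightest, was higher on its 2 other probe sets, so its direction here depends on the probe set. The genes that rose were NOP58 (0.69, SE 0.10; limma, adjusted p = 2.22e-06), POP5 (0.67, SE 0.07; adjusted p = 9.68e-09), UTP4 (0.46), BOP1 (0.40) and NOP56 (0.18). With the index as a term, 2 genes rose: POP5 and NOP58 kept their calls, UTP4 and BOP1 were 0.22 and 0.04, and NOP56 was 0.20 without a call. NOP56 had the opposite sign, at -0.20, when array 2 of parental normoxia was also left out.

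**Figure D4:**
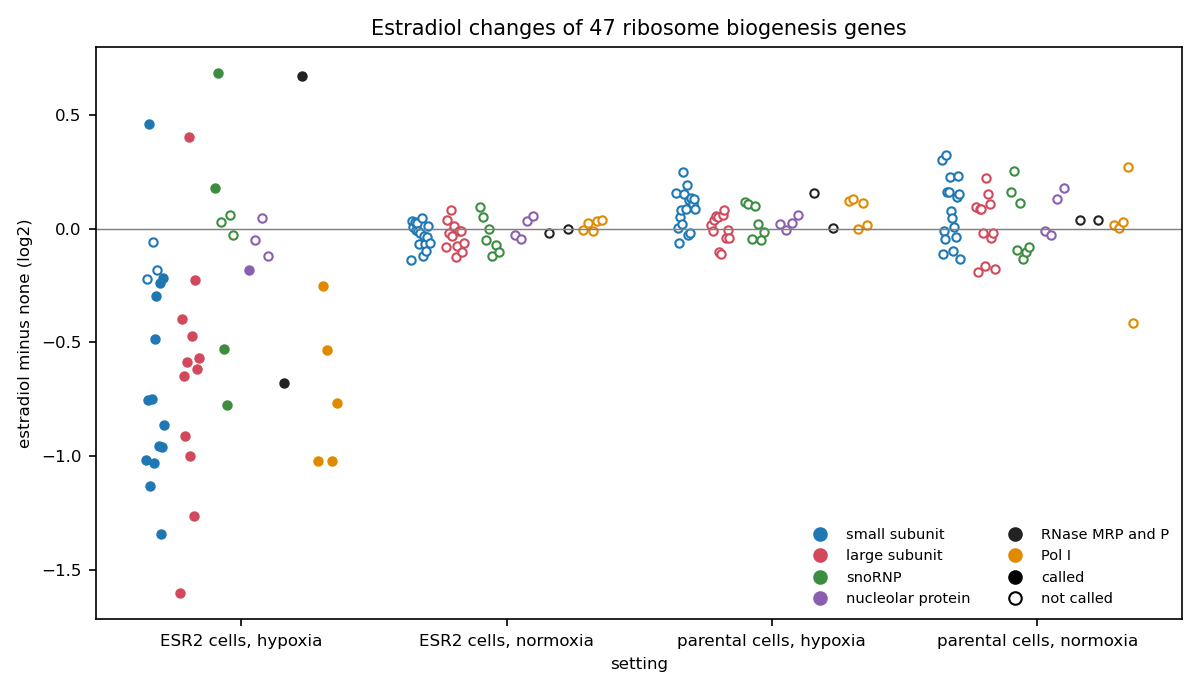
Estradiol minus none (log2) for the 47 genes in ESR2 and parental cells in hypoxia and normoxia (horizontal axis), coloured by role; filled points passed the limma threshold and open ones did not. In hypoxic ESR2 cells the points run from -1.60 to 0.69, while in the other 3 settings none is filled.

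**Figure D5:**
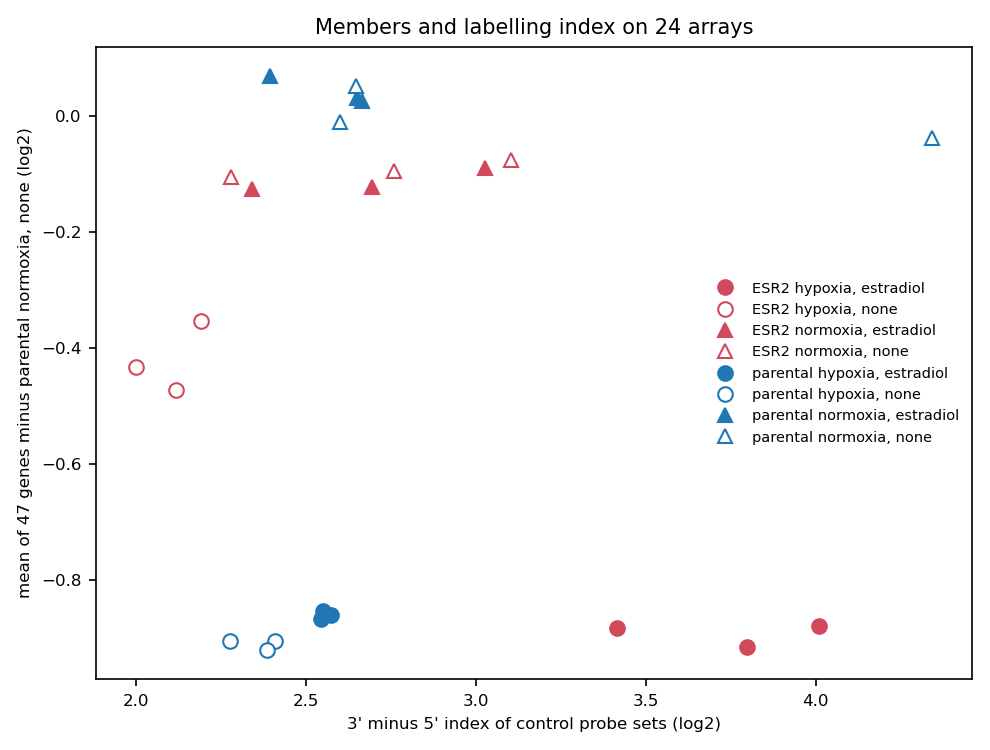
Mean of the 47 genes on each array, relative to parental normoxia without estradiol (vertical axis, log2), against the 3′ minus 5′ index (horizontal axis, log2). The 3 arrays of hypoxic ESR2 cells with estradiol lie at -0.91 to -0.88 with an index of 3.42 to 4.01, hypoxic parental arrays lie at -0.92 to -0.85 with an index of 2.28 to 2.57, and array 2 of parental normoxia has the highest index, 4.34, at a mean of -0.04.

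In hypoxic ESR2 cells every array with estradiol has a high index (3.42 to 4.01) and every array without it a low one (2.00 to 2.19). Estradiol and whatever sets the index therefore cannot be told apart there. The index term draws only on the spread within groups. Leaving out array 2 of parental normoxia moved the median of the estradiol change from -0.45 to -0.57. Beyond these fits, the part of the index in the estradiol result was not tested.

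MYC, the transcription factor known to activate many of these genes, did not fall with them in parental cells. It read 11.24, 11.35 and 11.25 in hypoxia without estradiol and 10.90, 11.06 and 10.91 in normoxia, so it rose by 0.32 (limma, SE 0.06, adjusted p = 0.000256). In hypoxic ESR2 cells with estradiol it read 10.19, 10.22 and 10.02, against 11.05, 10.95 and 10.90 without estradiol, a fall of 0.82 (SE 0.06; adjusted p = 2.99e-10). MYC RNA was higher in hypoxic parental cells, where 43 of the 47 genes fell, and lower with estradiol in hypoxic ESR2 cells, where 33 fell. In ESR2 cells without estradiol MYC averaged 10.97 in hypoxia and 10.73 in normoxia, and with estradiol 10.14 and 10.66. In hypoxic parental cells without estradiol it averaged 11.28, above the 10.97 of hypoxic ESR2 cells, in which 33 of the genes were higher than in parental cells. The part of MYC in these changes was not tested.

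A wider list of other ribosome biogenesis genes, 117 measured of 118, was described in the same way. In hypoxic parental cells without estradiol 92 fell, 6 rose and 19 did not pass, with a median of -0.61, where 21.2% of all genes fell and 16.4% rose. FTSJ3, an rRNA methyltransferase (-1.95, SE 0.07; limma, adjusted p = 9.08e-16), PAK1IP1, a large subunit factor (-1.82), and DIMT1, which methylates small subunit rRNA (-1.81), fell. TAF1A (0.95, SE 0.10; limma, adjusted p = 2.07e-08) and TAF1D (0.60), subunits of the Pol I selectivity factor, and the kinase RIOK3 (0.83) rose. With estradiol 98 fell and 6 rose in parental cells, where 18.7% of all genes fell and 16.1% rose. In ESR2 cells without estradiol 61 fell and 4 rose, where 18.2% of all genes fell and 14.4% rose. In ESR2 cells with estradiol 76 fell and 11 rose, where 22.6% of all genes fell and 29.6% rose.

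For the wider list the ESR2 minus parental difference of the hypoxia change without estradiol was higher for 59 genes, lower for 12 and not past the test for 46, with a median of 0.35, where 16.4% of all genes were higher and 14.3% lower. FTSJ3 (1.47), the H/ACA assembly factor SHQ1 (1.08) and the box C/D assembly factor NUFIP1 (1.04) had the smallest p-values among the higher genes, and TAF1A (-0.84), RSL24D1 (-0.57) and TAF1D (-0.69) among the lower. In ESR2 cells the hypoxia change with estradiol minus that without it was lower for 42 genes and higher for 19, with a median of -0.11, where 18.4% of all genes were lower and 25.4% higher. URB1 (-1.56), SURF6 (-1.41) and RUVBL1 (-0.84) had the smallest p-values among the lower ones.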

How the data were processed

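RNA from 24 samples of HCT116 cells was hybridized to Affymetrix arrays after in vitro transcription from the 3′ end (labels' protocols). What the authors deposited are log2 signals made with RMA from the affy package, per the submitters' processing notes. RMA corrects background, quantile-normalizes probes and summarizes them per probe set. No versions are stated. GEO's annotation of the platform gave 45253 of 49386 probe sets a single gene symbol; 1327 had several, 2713 none here, and 93 were controls. Genes were named only from single symbols. The brightest probe set stood for each of 18239 genes, with no filter on dim genes. Promoter sequences come from RefSeq (GRCh38.p14).

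Group means of all 24 arrays were fitted with limma 3.58.1 (lmFit, eBayes; 16 residual degrees of freedom) in R 4.3.3 (tables handled with the package data.table at version 1.17.8), over all genes, for 16 comparisons. Adjustment for all genes of a comparison followed Benjamini-Hochberg, calls were made at 0.05, and the method was tested on simulated data. A probe set was called in the same way over all probe sets. Figures were drawn with matplotlib 3.10.9.

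The members, the wider list, the markers and the tests were chosen with earlier results of these data known. All members may be named; values on every array were due in each role for the 3 with the largest and the 1 with the smallest hypoxia change in parental cells without estradiol and the 2 with the largest ESR2 minus parental difference, with up to 3 genes of the wider list in each direction. RCL1 and RRP1B were singled out after their values were seen.

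Replicate numbers of different groups did not pair the arrays: deviations from the group means of same-numbered arrays correlated at -0.29 to 0.29 (median -0.02, 84 pairs, 9 over 0.1), so no block was used. No array was a copy of another (highest correlation 0.998). The alternatives were a second quantile normalization, arrays centred on their medians, an average over all probe sets of a gene, leaving out the dimmest genes, an intensity trend with a robust prior, only the groups compared, the replicate block, the 3′ minus 5′ index as a covariate and each array left out. Added after seeing the data were that covariate without array 2 of parental normoxia, a fit without the hypoxic ESR2 arrays with estradiol, and a call that needs 1 direction in every probe set.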

Additional observations from a re-analysis of the deposited data

Results flagged for a closer look

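The results listed here are those in which the hypoxia change differed between cell types or with estradiol, by the limma test of the difference itself (3 arrays per group). Only genes whose array values were due are listed. Some were due because their ESR2 minus parental difference without estradiol was among the largest of their role. The number listed is therefore no result about the whole set.

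Without estradiol, the hypoxia change in ESR2 cells minus that in parental cells was positive for 16 genes. It was 2.05 for RRS1, 1.53 for NOP2 and 0.84 for MRTO4 among large subunit factors, and 1.04 for PNO1, 0.97 for RRP9 and 0.65 for LTV1 among small subunit factors. It was 0.91 for NOP56, 0.85 for GAR1, 0.54 for DKC1 and 0.37 for NOLC1. Both RNase subunits are in this set, with POP1 at 1.89 and POP5 at 0.66, as are the Pol I genes UBTF (1.10), POLR1B (1.06), RRN3 (0.83) and POLR1C (0.56).

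With estradiol in both cell types, the same difference was positive for POP5 (1.37), POP1 (1.10), NOP56 (1.04), NOP2 (0.90), POLR1B (0.65), RRP9 (0.61), RRS1 (0.61), PNO1 (0.56), NOLC1 (0.49) and MRTO4 (0.26). It was negative for DDX10 (-1.02) and WDR12 (-0.57).

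In ESR2 cells, the hypoxia change with estradiol minus that without it was negative for most genes. It was -1.53 for RRS1, -1.13 for UTP15, -1.06 for RRN3, -0.92 for DDX10 and -0.81 for UBTF. Smaller values were those of POP1 (-0.66), GAR1 (-0.65), MRTO4 (-0.63), DKC1 (-0.53), POLR1C (-0.52), PNO1 (-0.47), NOP2 (-0.44), WDR12 (-0.40), LTV1 (-0.34) and POLR1B (-0.28). POP5 alone among these genes had a positive value, 0.67.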

How the results depend on the processing

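Over the alternatives run, the number of genes lower in hypoxia was 39 to 44 in parental cells without estradiol, 25 to 31 in ESR2 cells without it and 33 to 41 with it, before arrays were left out. Counts near 0 moved. Averaging a gene's probe sets gave 2 rises in hypoxic ESR2 cells without estradiol, and fitting only the groups compared gave 2 rises with it. The ESR2 minus parental difference without estradiol had 1 lower gene after quantile normalization again, without the dimmest genes, with a trend and robust prior, with the replicate block, and with the 3′ minus 5′ index without array 2 of parental normoxia. With estradiol it had 5 lower genes when every probe set had to share the direction. With the index as a term, with or without that array, 2 genes had a higher hypoxia change with estradiol than without it in ESR2 cells, and 2 rose with estradiol in hypoxic ESR2 cells. For ESR2 against parental cells in normoxia without estradiol, the trend and robust prior gave 1 higher gene and the fit of only the groups compared 1 lower gene; with estradiol that fit gave 18 lower genes.

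With each array left out in turn, ESR2 against parental cells had 4 to 10 lower and 0 to 4 higher genes in normoxia without estradiol, 5 to 9 lower genes in normoxia with it and 3 to 5 lower genes in hypoxia without it. The ESR2 minus parental difference without estradiol had 0 to 1 lower genes, and estradiol in parental normoxia gave 0 to 1 higher genes. Averaging probe sets reversed WDR3 (0.14) in the ESR2 minus parental difference with estradiol, PNO1 (0.032) in the estradiol difference in ESR2 cells, RRP1B (-0.020) between cell types in hypoxia without estradiol, and HEATR1 (0.029) and LTV1 (-0.025) there with estradiol. NOP56 with estradiol in hypoxic ESR2 cells was -0.20 with the index and without array 2 of parental normoxia. Of 365 calls, the replicate block kept 360. The causes were not tested. The 3 arrays a group limit the precision.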
